A study of Homo sapiens with 17 samples.

Results

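The 38 genes described here build, move and police the mitotic spindle: mitotic kinases, spindle checkpoint proteins, kinetochore and centromere subunits, spindle kinesins and cytokinesis proteins. They were taken by gene symbol from a list by function, with no measured value in the rule, and all 38 were found among the 23368 genes of the deposited count table. All 38 also passed the filter on low counts in each of the 9 comparisons below.

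At mitosis each chromosome carries a kinetochore, a protein plate that assembles on centromeric chromatin and holds spindle microtubules. Unattached kinetochores keep the spindle checkpoint on, which blocks the anaphase-promoting complex until every chromosome is attached, and loss of that block lets separase cut cohesin and the chromatids part. Transcription of most of these genes peaks in G2 and mitosis, through a CHR element (cell cycle genes homology region) and CCAAT boxes in their promoters, so their level in a growing cell line such as HEK293T follows how many cells are near mitosis as well as how much RNA each cell makes.

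Poly(A) RNA was profiled in HEK293T, a line grown from human embryonic kidney, by acRIP-seq: an antibody against N4-acetylcytidine (ac4C) pulls down modified RNA, which is then sequenced. One kind of cells had genotype WT and the other genotype siTARDBP, here called siTDP43, in which siRNA was directed at TDP43, an RNA-binding protein encoded by TARDBP. From each, input RNA, RNA pulled down with the ac4C antibody (IP) and RNA pulled down with a control immunoglobulin (IgG) were sequenced, in 3 libraries a group and 2 for WT IgG, 17 in all. The labels name no control siRNA and no time for the WT libraries, so knockdown, transfection and preparation of the cells cannot be told apart, and the labels do not say whether replicates were separate cultures (the methods speak of independent samples for most experiments, without naming these libraries), so that p-values may measure technical spread alone.

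Total counts were 24542434 to 36583436 in the 6 input libraries, 8610070 to 21066215 in the 6 IP libraries and 3013989 to 9466855 in the 5 IgG libraries, with siTDP43 IgG the shallowest group. TARDBP, the target of the siRNA, was at 149.7, 157 and 151 CPM (counts per 1000000 counts of TMM-scaled library size) in WT inputs and at 98.7, 102 and 106 CPM in siTDP43 inputs, 67.2% of the WT level. NAT10, the enzyme that writes ac4C, was at 50.7, 52.3 and 51.6 CPM in WT inputs and at 116, 108 and 111 CPM in siTDP43 inputs. Of the markers of this line that were checked, VIM, KRT8, KRT18 and NEFM were at 66.1 to 788 CPM on average in WT inputs. They were all lower in siTDP43 inputs (log2 changes -1.58, -2.30, -0.54 and -0.66 in that order). The line markers INA and PAX2 were below 1 CPM in WT inputs. INA was called higher in siTDP43 inputs, at 2.06 CPM on average (log2 change 3.39), and PAX2 was not tested. Of markers of other cells, PTPRC and PECAM1 of blood and endothelium had 0 counts, ALB of liver had at most 4 counts, and DES of muscle was at 3.09 CPM.

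Most spindle and kinetochore genes were higher in the siTDP43 inputs. Of the 38 genes, 25 passed the test as higher in siTDP43, against 38.6% of the 14036 genes tested, and 9 as lower, against 40.6%. The change is the log2 fold change of siTDP43 input over WT input from edgeR's quasi-likelihood test, called at an adjusted p under 0.05, and values after ± are standard errors of log2 changes unless marked SD. Its median was 0.50 over the 38 genes and -0.049 over all genes tested. Input libraries did not overlap between the genotypes for 34 of the 38 genes, 25 of them higher and 9 lower in siTDP43. Separated libraries were thus common in this contrast and do not set apart the genes named below. Called changes were common among all genes tested too, at the shares given above, and the share of all genes with separated libraries is not given here. The 25 were spread over the roles: 4 of 5 mitotic kinases, 3 of 3 checkpoint proteins, 6 of 6 spindle kinesins and 4 of 4 genes of the spindle midzone and cytokinesis rose. The kinetochore was split, with 1 of 4 outer kinetochore subunits and 3 of 7 centromere and inner kinetochore genes higher, and both CENPE and CENPF lower. Of the line markers, VIM, KRT8, KRT18 and NEFM were lower in siTDP43 and INA, at few counts, was higher. Their part in this contrast was not tested. In these bulk libraries more cells near mitosis and more RNA per cell cannot be told apart.

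**Figure D1:**
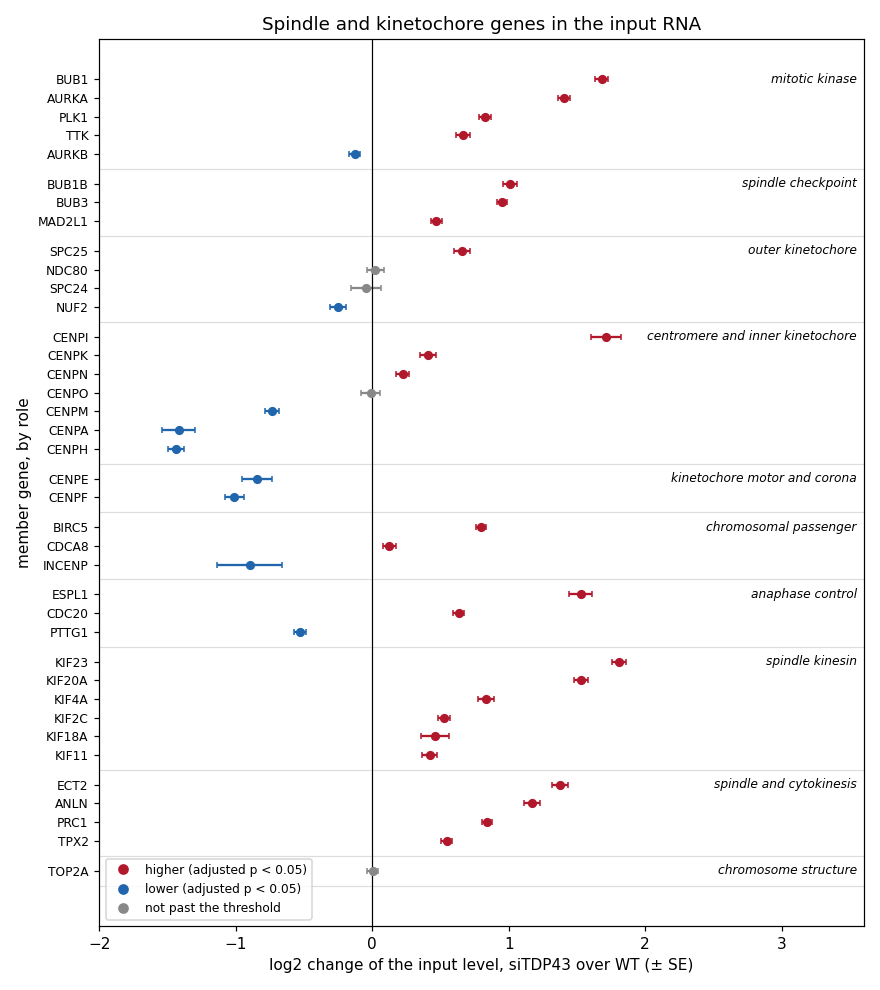
Log2 change of the input level, siTDP43 over WT, on the x axis for each of the 38 genes on the y axis, grouped by role. Points are edgeR estimates with bars of 1 SE from 3 libraries a group, red where higher, blue where lower and grey where the adjusted p was not under 0.05. All 6 spindle kinesins lie to the right of 0, and CENPH, CENPA and CENPF lie at or beyond -1.

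The genes covered a wide range of levels. Per kilobase of exon, in FPKM, here CPM divided by exon length in kilobases, PTTG1 had the highest WT input level at 442 ± 14.4 (SD, n = 3), followed by MAD2L1 at 302 ± 7.68 and AURKB at 236 ± 9.36. At the other end stood INCENP at 0.836 ± 0.161, CENPE at 1.82 ± 0.0915 and ESPL1 at 2.07 ± 0.167 FPKM. In the siTDP43 inputs MAD2L1 stood first at 417 ± 15.1, PTTG1 next at 305 ± 19.2 and then BUB3 at 267 ± 4.27 FPKM. INCENP and CENPE were again the lowest, at 0.447 ± 0.0834 and 1.01 ± 0.0592 FPKM.

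Among the mitotic kinases, BUB1, which marks centromeric chromatin for the checkpoint and cohesion machinery, changed most. It was at 69.6, 65.03 and 63.9 CPM in the WT inputs and at 213, 204 and 216 CPM in the siTDP43 inputs, a log2 change of 1.68 ± 0.0462 with an adjusted p of 1.99e-24. AURKA, which drives centrosome maturation and spindle assembly, was at 96.2, 89.8 and 95.1 CPM in WT and at 245, 244 and 254 CPM in siTDP43 (log2 change 1.41 ± 0.0434). PLK1, the polo-like kinase of mitotic entry, was at 120.3, 122 and 119 CPM in WT and at 219.96, 201 and 217 CPM in siTDP43 (log2 change 0.82 ± 0.0433). For all 3 kinases every siTDP43 library lay above every WT library. TTK, which starts checkpoint signalling at the kinetochore, rose by a log2 change of 0.66 ± 0.051. AURKB, the kinase of the chromosomal passenger complex, went the other way by a small amount. It was at 306, 286 and 285 CPM in WT and at 279.5, 255 and 265 CPM in siTDP43 (log2 change -0.13 ± 0.0418, adjusted p = 0.00633), and the sign turned to 0.086 once each library's trend with the GC content of exons was removed. The AURKB call was also lost without WT replicate 1 (adjusted p = 0.0574) or without siTDP43 replicate 2 (adjusted p = 0.0722).

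The 3 checkpoint proteins that hold back the anaphase-promoting complex all rose. BUB1B (BubR1), part of the inhibitory checkpoint complex, was at 56.5, 58.5 and 57.9 CPM in WT and at 109.8, 118 and 119 CPM in siTDP43, about 1 log2 unit higher (1.01 ± 0.0504). MAD2L1 (MAD2), which binds CDC20 in that complex, was at 445, 423 and 435 CPM in WT and at 576, 601 and 619 CPM in siTDP43 (log2 change 0.47 ± 0.038). BUB3, the adaptor that recruits BUB1 and BUB1B to kinetochores, rose by a log2 change of 0.95 ± 0.0362. WT and siTDP43 input libraries did not overlap for any of the 3 genes, as for 34 of the 38 genes in all.

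The 4 subunits of the NDC80 complex, which couples kinetochores to microtubules, did not move together. SPC25 rose, with a log2 change of 0.66 ± 0.0604, and NUF2 fell by 0.25 on the log2 scale. NDC80 was at 58.9, 60.5 and 60.9 CPM in WT and at 54.9, 65.5 and 62.2 CPM in siTDP43, and its libraries overlapped (log2 change 0.022 ± 0.0603, adjusted p = 0.746). SPC24 gave a log2 change of -0.048 ± 0.111 (adjusted p = 0.7). After removal of the GC trend NDC80 gave -0.28 and SPC24 0.61, both past the threshold, so the direction of these 2 subunits depended on that correction.

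Centromere genes held both the strongest falls and one of the strongest rises. CENPA, the histone H3 variant that marks the centromere, was at 16.3, 16.4 and 15.2 CPM in WT and at 5.30, 6.34 and 6.24 CPM in siTDP43, 37.4% of the WT level (log2 change -1.42 ± 0.118, adjusted p = 2.5e-12). CENPH, a subunit of the network that sits on CENPA chromatin, was at 96.9, 100.1 and 102 CPM in WT and at 34.7, 39.3 and 36.03 CPM in siTDP43 (log2 change -1.44 ± 0.057). CENPI, a partner of CENPH in the same network, was at 6.25, 6.92 and 7.18 CPM in WT and at 21.4, 24.3 and 21.1 CPM in siTDP43, 3.28-fold higher (log2 change 1.71 ± 0.108). The groups of all 3 genes stood apart in every library, CENPI upward and CENPA and CENPH downward. Of the other inner kinetochore subunits, CENPK rose by a log2 change of 0.41 ± 0.0604 and CENPN by 0.22 ± 0.05, the latter lost after removal of the GC trend (adjusted p = 0.114). CENPM fell by 0.73 and CENPO gave -0.013 ± 0.0709 (adjusted p = 0.868). Exons of CENPO and CENPN overlap those of genes on the other strand (ADCY3 and PTRHD1, and CMC2), and whether counting used strand is not given in the sources used here.

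CENPE and CENPF, the longest transcripts of the list, were lower in siTDP43 inputs. CENPE, the kinesin that carries chromosomes to the spindle equator, was at 14.8, 16.004 and 16.3 CPM in WT and at 8.20, 8.71 and 9.22 CPM in siTDP43 (log2 change -0.85 ± 0.109). CENPF, a coiled-coil protein of the outer corona, was at 46.7, 44.1 and 45.8 CPM in WT and at 22.3, 23.6 and 21.7 CPM in siTDP43 (log2 change -1.01 ± 0.0698, adjusted p = 2.85e-14). Every siTDP43 library lay below every WT library for both.

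The chromosomal passenger complex, which corrects faulty attachments, was also split. BIRC5 (survivin) rose by a log2 change of 0.80 ± 0.0376, CDCA8 (borealin) by 0.13 ± 0.0496 with an adjusted p of 0.022, and INCENP, the scaffold that binds AURKB, fell by 0.90 on the log2 scale. INCENP had few counts in input, 2.88, 3.33 and 4.19 CPM in WT and 2.08, 2.02 and 1.45 CPM in siTDP43, and its call was lost after removal of the GC trend (log2 change -0.49, adjusted p = 0.055). The CDCA8 call was lost under total count scaling (adjusted p = 0.527), with genes under a mean of 50 counts left out (0.14), and without WT replicate 1 (0.057) or 2 (0.102).

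Of the anaphase genes, ESPL1 (separase), the protease that cuts cohesin, rose 2.88-fold, from 14.98, 13.2 and 12.9 CPM in WT to 42.4, 39.4 and 36.03 CPM in siTDP43 (log2 change 1.53 ± 0.0844). PTTG1 (securin), the protein that holds separase inactive, was at 303, 323 and 319 CPM in WT and at 212, 207 and 233 CPM in siTDP43 (log2 change -0.53 ± 0.0431). CDC20, the activator of the anaphase-promoting complex, was at 194, 185 and 187 CPM in WT and at 303, 289.8 and 283 CPM in siTDP43 (log2 change 0.63 ± 0.0408). Separase and CDC20 RNA were thus higher and securin RNA lower, with no overlap of libraries for any of them. PTTG1 has close intronless copies in the genome, so reads may have been lost or shared between them.

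All 6 spindle kinesins rose. KIF23, a subunit of centralspindlin at the spindle midzone, had the largest rise of the 38 genes, from 33.3, 36.1 and 34.3 CPM in WT to 116, 121 and 126 CPM in siTDP43, 3.50-fold (log2 change 1.81 ± 0.0541, adjusted p = 1.57e-23). KIF20A, which brings the passenger complex to the midzone, was at 42.99, 46.6 and 44.04 CPM in WT and at 132, 125 and 128 CPM in siTDP43 (log2 change 1.53 ± 0.0512). KIF11 (Eg5), the motor that pushes spindle poles apart, was at 66.3, 67.96 and 65.9 CPM in WT and at 83.2, 90.8 and 92.9 CPM in siTDP43 (log2 change 0.42 ± 0.0522). KIF23 and KIF20A thus changed far more than KIF11. After removal of the GC trend the log2 change of KIF11 was 0.12, still past the threshold. The chromokinesin KIF4A rose by a log2 change of 0.83 ± 0.0618, the microtubule depolymerase KIF2C by 0.52 ± 0.0444, and KIF18A, which damps chromosome movement, by 0.46 ± 0.103. The KIF18A call was lost after removal of the GC trend (adjusted p = 0.0585), and KIF4A has a near-identical intronless copy, KIF4B, so its reads may be shared.

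The genes of the spindle midzone and cytokinesis rose together as well. ECT2, which activates RhoA at the division plane, rose by a log2 change of 1.37 ± 0.0584, ANLN (anillin), which organises the contractile ring, by 1.17 ± 0.0602, and PRC1, which bundles midzone microtubules, by 0.84 ± 0.038. TPX2, the spindle assembly factor that activates AURKA, was at 146, 147 and 144 CPM in WT and at 206, 211 and 217 CPM in siTDP43 (log2 change 0.55 ± 0.0412). TOP2A, the topoisomerase that untangles sister chromatids, is the 1 gene of its role here. It was at 191, 196 and 203 CPM in WT and at 192, 198 and 199 CPM in siTDP43, with overlapping libraries (log2 change 0.0022 ± 0.0413, adjusted p = 0.962), but gave -0.30 past the threshold after removal of the GC trend and -0.089 (adjusted p = 0.0451) under total count scaling.

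**Figure D2:**
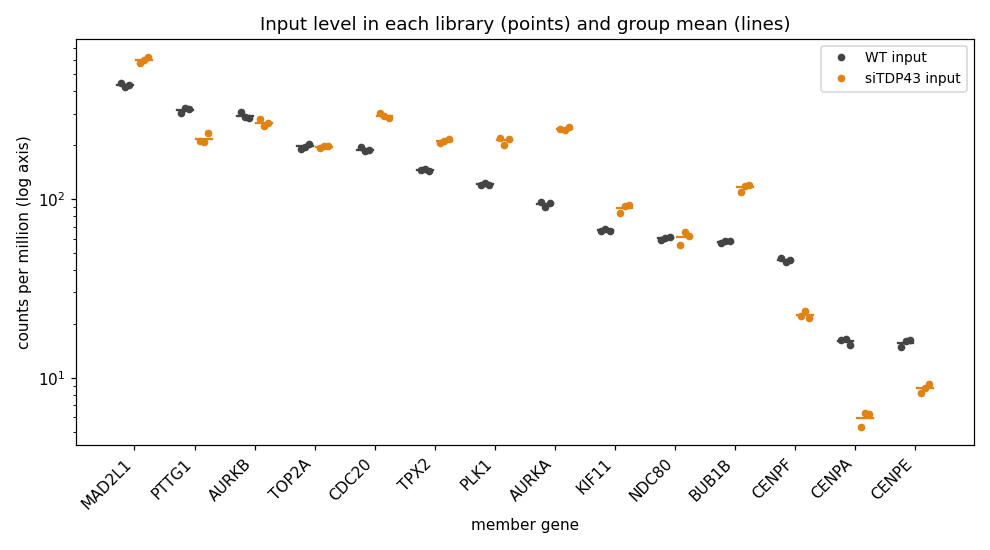
CPM on a log axis for 14 of the 38 genes, in the 3 WT input libraries (grey) and the 3 siTDP43 input libraries (orange). Each point is 1 library and each line a group mean. AURKA and BUB1B stand clearly apart upward and CENPA, CENPE and CENPF downward, while TOP2A and NDC80 overlap.

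Other genes of mitosis were counted beside these 38. In the siTDP43 inputs 65 of 105 other mitotic genes were higher and 26 lower, with a median log2 change of 0.33. Of 25 other kinetochore genes 20 were higher and 1, MLF1IP (log2 change -0.32), was lower. Of 16 subunits and partners of the anaphase-promoting complex 7 were higher and 7 lower, and of 17 genes of the G1 to S transition 9 were higher and 7 lower (median 0.20). Over all 14036 genes tested 38.6% were higher and 40.6% lower. Both counts of the anaphase-promoting complex and the falls among the G1 to S genes lay near these shares. The largest rises among these other genes were those of the motor KIF3B (2.06) and of UHRF1 (1.89), a factor of DNA methylation at replication forks. The largest falls were those of UBE2S (-3.65), a ubiquitin-conjugating enzyme of the anaphase-promoting complex, and of the replication licensing factor CDT1 (-2.50). Of 10 mitotic cyclins, CDK1, MKI67 and transcription factors of the CHR and CCAAT programme, 3 rose, namely LIN9 (1.78), CCNB1 (1.60) and CDK1 (0.22), and 4 fell, namely MYBL2 (-1.48), FOXM1 (-1.02), MKI67 (-0.74) and LIN37 (-0.29). These 7 genes and MLF1IP were named after their values were seen.

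CHR and CCAAT matches were common in the promoters of these genes. RefSeq promoter windows, 250 bases before to 50 bases after the start site on GRCh38.p14, were matched for 31 of the 38 genes and not for AURKA, TTK, BUB3, CENPH, CENPM, BIRC5 and TPX2. The CHR element was searched as TTTGAA and the CCAAT box as CCAAT, each on both strands. A CHR match stood in 22 of the 31 windows (71.0%), against 15.4% of 27305 windows of all genes, and a CCAAT match in 23 (74.2%), against 35.7%. Both stood in 17 of 31 (54.8%), against 6.08% of all windows. In 15 windows the CHR match lay within the last 70 bases before the start site. In CDCA8 the pair of motifs share 1 base.

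The CHR element was present on both sides of the input change: in 15 of 20 matched genes that were higher in siTDP43, in 4 of 7 that were lower and in 3 of 4 that did not pass. CENPI, BUB1 and KIF20A, with input rises of 1.71, 1.68 and 1.53, had no CHR match. The stretches of 60 bases below show the element in some genes with large rises (KIF23, ESPL1, BUB1B, ANLN). They also show it for the kinase PLK1 and the anaphase activator CDC20, and for CENPA and INCENP, which were lower. They are written in the direction of transcription, 5′ to 3′, with CHR and CCAAT matches on either strand (TTCAAA and ATTGG on the other strand) in capitals.
KIF23, chr15:69414250-69414309 (plus strand, GRCh38.p14): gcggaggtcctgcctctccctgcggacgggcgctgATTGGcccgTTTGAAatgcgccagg
ESPL1, chr12:53268224-53268283 (plus strand, GRCh38.p14): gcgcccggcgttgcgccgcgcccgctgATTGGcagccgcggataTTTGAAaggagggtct
BUB1B, chr15:40161002-40161061 (plus strand, GRCh38.p14): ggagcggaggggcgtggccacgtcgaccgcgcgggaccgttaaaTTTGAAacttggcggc
ANLN, chr7:36389798-36389857 (plus strand, GRCh38.p14): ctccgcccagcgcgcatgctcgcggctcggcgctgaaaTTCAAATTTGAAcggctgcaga
PLK1, chr16:23678816-23678875 (plus strand, GRCh38.p14): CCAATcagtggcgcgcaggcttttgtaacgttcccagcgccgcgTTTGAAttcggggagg
CDC20, chr1:43358872-43358931 (plus strand, GRCh38.p14): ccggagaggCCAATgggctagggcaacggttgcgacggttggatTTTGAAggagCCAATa
CENPA, chr2:26785994-26786053 (plus strand, GRCh38.p14): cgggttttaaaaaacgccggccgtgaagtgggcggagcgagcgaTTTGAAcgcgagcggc
INCENP, chr11:62123951-62124010 (plus strand, GRCh38.p14): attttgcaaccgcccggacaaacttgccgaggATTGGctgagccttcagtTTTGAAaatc
In KIF23 the CCAAT match lies just before the CHR match, and in ANLN a forward and an inverted CHR match adjoin each other. CENPA, which fell in siTDP43, has the same element close to its start site as BUB1B, which rose. A match is a description of the letters in the window and shows no binding.

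**Figure D3:**
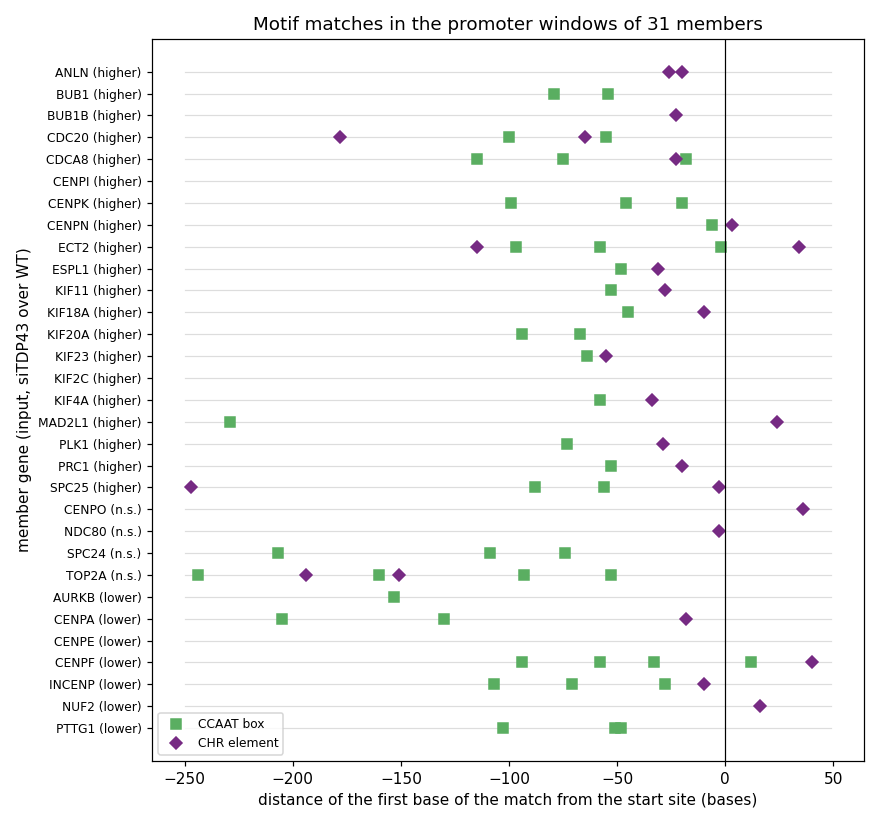
Position of each CHR match (purple diamonds) and CCAAT match (green squares) in bases from the start site, on the x axis, for the 31 matched genes on the y axis, marked higher, lower or n.s. (not past the threshold) for the input change. CHR matches lie just before the start site in many of the genes that rose and in CENPA and INCENP, which fell, and CENPI, KIF2C and CENPE have no match of either motif.

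The pull-downs gave another picture, in which 2 of the 38 genes stood far apart from the others. A gene was called here when it differed more than 2-fold with an adjusted p under 0.05. In WT, 4 of the 38 genes were higher in IP than in input, against 30.2% of the 14751 genes tested, and 14 were lower, against 27.3%. The median log2 fold was -0.71 over the 38 genes and 0.013 over all genes. After removal of the GC trend the counts were 5 higher and 8 lower. Against WT IgG, 8 genes were higher in IP, against 35.2%, and 5 lower, against 17.8%, and these became 7 and 8 after removal of the GC trend. Only CENPE and CENPF were higher in IP than in both controls, the rule used here for ac4C(+), which is 2 of 38 (5.26%) against 15.6% of all genes tested.

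Per kilobase of exon, CENPF (366 ± 21.4 FPKM, SD, n = 3) and CENPE (290.4 ± 9.59 FPKM) had the highest levels of the 38 genes in WT IP. CENPE was at 14.8, 16.004 and 16.3 CPM in WT input, at 2407, 2531 and 2564 CPM in WT IP and at 29.000 and 53.7 CPM in WT IgG. Its log2 fold was 7.32 ± 0.119 over input, 159.7-fold, and 5.90 ± 0.138 over IgG, with adjusted p values of 1.62e-24 and 1.29e-20. CENPF was at 46.7, 44.1 and 45.8 CPM in input, at 3514, 3867 and 3919.6 CPM in IP and at 147 and 173 CPM in IgG. Its log2 fold was 6.38 ± 0.0679 over input, 83.2-fold, and 4.54 ± 0.0749 over IgG. Every IP library lay above every input and IgG library for both, and both were also higher in IgG than in input, by log2 folds of 1.41 ± 0.138 for CENPE and 1.84 ± 0.0663 for CENPF. After removal of the GC trend the folds of IP over input were 8.34 and 6.98 and those of IgG over input 2.29 and 2.48. Without WT IgG replicate 2 the log2 fold of CENPE in IgG over input was 0.90, under the 2-fold threshold. In enrichment over input CENPE ranked 69 and CENPF 140 of all 14751 genes tested in WT. High folds over both controls were not limited to this pair. Among the other mitotic genes, MKI67 gave WT log2 folds of 5.23 over input and 3.31 over IgG, and NUMA1 5.09 and 4.31. Others were low against both, such as PBK (-2.56 and -2.91). These 3 genes were picked after their values were seen.

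In siTDP43 most of this enrichment was gone. CENPE was at 8.20, 8.71 and 9.22 CPM in siTDP43 input, at 28.98, 32.2 and 22.4 CPM in IP and at 2.94, 1.62 and 4.27 CPM in IgG, log2 folds of 1.84 ± 0.191 over input and 3.15 ± 0.304 over IgG. CENPF was at 22.3, 23.6 and 21.7 CPM in input, at 55.6, 54.998 and 56.8 CPM in IP and at 13.95, 4.86 and 12.8 CPM in IgG, log2 folds of 1.46 ± 0.151 over input and 2.31 ± 0.212 over IgG. IP libraries again lay above both controls for both genes, so they stayed ac4C(+) by the rule, at a far lower level. The enrichment over input changed by -5.62 ± 0.175 log2 units for CENPE and by -5.06 ± 0.114 for CENPF, siTDP43 minus WT, with adjusted p values of 5.61e-26 and 2.78e-30. The enrichment over IgG changed by -2.70 ± 0.543 and -2.18 ± 0.222, or by -3.64 and -2.84 after removal of the GC trend, under which the siTDP43 folds over IgG were 2.13 and 1.47. With a fold over IgG above 5 as the threshold, CENPE alone was ac4C(+) in siTDP43. The IgG libraries went the opposite way between genotypes for both genes, above input in WT and below every input library in siTDP43, with siTDP43 log2 folds of -1.31 ± 0.334 for CENPE, which was called, and -0.84 ± 0.222 for CENPF, short of the 2-fold threshold. The CENPF fold passed it when replicate 1 of siTDP43 IgG was left out (-1.10) and when libraries were scaled by total count alone (-1.39), and narrowly when replicate 3 was left out (-1.01). Both signs turned, to 0.21 and 0.40, after removal of the GC trend.

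**Figure D4:**
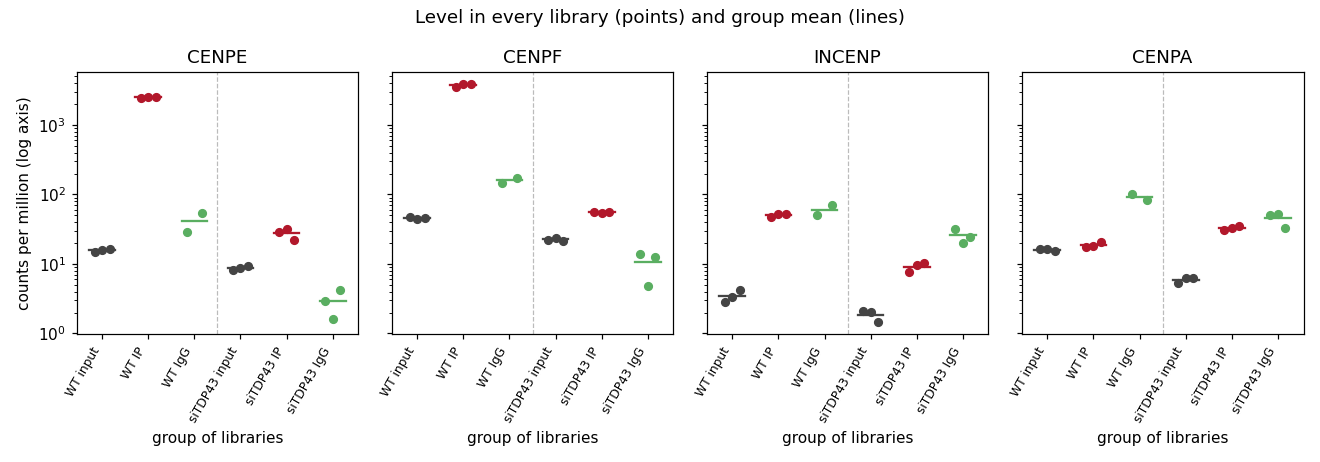
CPM on a log axis for CENPE, CENPF, INCENP and CENPA in all 17 libraries, by group on the x axis. Points are libraries, black for input, red for IP and green for IgG, and lines are group means. WT IP of CENPE and CENPF lies far above all other groups, while INCENP and CENPA are raised in IgG over input in both genotypes.

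CENPE and CENPF took most of the counts of the whole list in WT IP. The 38 genes summed to 8414 to 9074 CPM in WT IP and to 3981 to 3991 CPM in WT input. CENPE and CENPF made up 70.4 to 71.5% of the sum in WT IP, 1.51 to 1.56% in WT input and 2.25 to 2.41% in siTDP43 IP. Without this pair, the other 36 summed to 2493 to 2591 CPM in WT IP against 3921 to 3929 in WT input, and to 3449 to 3582 CPM in siTDP43 IP against 5657 to 5803 in siTDP43 input. The sum without the pair was thus lower in IP than in input in every library of both genotypes.

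The pair also had the most exon bases and the highest shares of adenine among the 38 genes. CENPF, on hg19 chr1:214776532-214837914 (plus strand), has 10296 bases of exon and CENPE, on chr4:104026963-104119566 (minus strand), 8612, the longest and second longest of the 38 genes and longer than 96.9% and 94.6% of the genes tested in WT. Adenine made up 41.4% of CENPE and 36.7% of CENPF exon bases, against medians of 29.1% over the 38 genes and 25.5% over the genes tested, and cytosine 15.3% and 17.4%. KIF18A, with 36.0% adenine, lay close to CENPF, and CENPK, with 15.0% cytosine, lay below both. The purine words AGAAG, its shift GAAGA and the further shift AAGAA occurred 23.7 times per kilobase in CENPE and 21.1 in CENPF, against medians of 10.8 and 6.59. TPX2 had 22.7 per kilobase and NDC80 20.3, and neither was enriched in WT IP (log2 folds -0.63 ± 0.0519 and -0.75 ± 0.078 over input).

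The densest 90-base coding windows of these words are shown for CENPE and CENPF, the enriched pair, for TPX2, rich in the words without enrichment, and for MAD2L1, the gene most depleted from WT IP. They were read from hg19 within single coding exons, on the transcript strand 5′ to 3′, with the words in capitals.
CENPE, chr4:104070060-104070149 (minus strand, hg19): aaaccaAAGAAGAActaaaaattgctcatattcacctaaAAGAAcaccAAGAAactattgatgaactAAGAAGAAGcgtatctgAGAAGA
CENPF, chr1:214820393-214820482 (plus strand, hg19): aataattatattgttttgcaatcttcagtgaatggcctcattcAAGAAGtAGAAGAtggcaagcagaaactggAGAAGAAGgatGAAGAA
TPX2, chr20:30385209-30385298 (plus strand, hg19): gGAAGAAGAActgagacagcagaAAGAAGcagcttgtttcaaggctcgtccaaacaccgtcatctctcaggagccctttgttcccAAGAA
MAD2L1, chr4:120981356-120981445 (minus strand, hg19): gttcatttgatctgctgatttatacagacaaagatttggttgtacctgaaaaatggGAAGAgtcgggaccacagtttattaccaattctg
These windows held 13 words in CENPE, 10 in CENPF, 8 in TPX2 and 1 in MAD2L1. Across the 38 genes Spearman's rho of the WT log2 fold of IP over input was 0.311 with exon length and 0.368 with the density of these words, and 0.19 and 0.26 over the 36 genes without CENPE and CENPF, against 0.199 and -0.11 over 14751 genes, so the sign with the words was opposite among all genes. With the share of adenine rho was -0.0356 over the 38 genes and -0.292 over all genes. The change of that fold in siTDP43 gave -0.565 with length and -0.522 with the words, and -0.489 and -0.442 without the pair, against -0.242 and -0.00493 over 15165 genes. The genes share libraries and are not independent, and the part of length and composition in the enrichment was not tested.

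On average INCENP and CENPA made up as large a share of the control IgG libraries as of the antibody libraries, or a larger one. CPM are shares of a library, and how much RNA each pull-down recovered was not measured here. INCENP was at 47.4, 52.7 and 52.2 CPM in WT IP and at 50.1 and 70.1 CPM in WT IgG, log2 folds over input of 3.87 ± 0.132 and 4.13 ± 0.145, with an IP fold of 3.25 after removal of the GC trend. IP did not pass against IgG (log2 fold -0.26 ± 0.123, adjusted p = 0.0541), a value that came to 0.0023 without WT IgG replicate 2 and to -1.15, called lower, after removal of the GC trend. In siTDP43 it was at 7.58, 9.52 and 10.3 CPM in IP and at 32.3, 20.2 and 24.6 CPM in IgG, with IgG above IP in every library (IP over IgG -1.57 ± 0.266) and log2 folds over input of 2.44 ± 0.273 in IP and 4.02 ± 0.287 in IgG. CENPA was at 17.6, 18.4 and 21.01 CPM in WT IP and at 101 and 83.7 CPM in WT IgG. Its WT IgG was above input (2.56 ± 0.103) and IP was below IgG (-2.30 ± 0.104). In siTDP43 CENPA was at 30.98, 32.9 and 35.5 CPM in IP and at 50.7, 52.6 and 32.7 CPM in IgG, log2 folds over input of 2.63 ± 0.173 and 3.15 ± 0.188. After removal of the GC trend that IgG fold was 3.90, and CENPA was called lower in siTDP43 IP than in IgG (-1.15). The mean CPM of either gene was thus no higher in IP than in the control pull-down of the same genotype. KIF4A was the fourth gene above input in WT IP (1.58 ± 0.0691), and it too was higher in WT IgG than in input (1.11 ± 0.0813, and 0.98, under the 2-fold threshold, without WT IgG replicate 1). It was at 32.9, 32.9 and 34.3 CPM in WT input, at 94.8, 101 and 103 in WT IP and at 75.8 and 65.04 in WT IgG.

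MAD2L1, SPC24 and TTK were most depleted from WT IP. MAD2L1 was at 60.8, 61.5 and 61.6 CPM in IP and at 202 and 177 CPM in IgG, far below its input level, a log2 fold of -2.82 ± 0.0563 over input and -1.65 ± 0.0621 over IgG. SPC24 was at 12.7, 13.3 and 12.5 CPM in WT input and at 2.23, 3.39 and 4.03 CPM in WT IP (log2 fold -1.99 ± 0.19). TTK was at 56.2, 56.1 and 58.3 CPM in WT input and at 16.04, 16.3 and 14.98 CPM in WT IP (-1.84 ± 0.0831), a fold that came to -0.93, under the 2-fold threshold, after removal of the GC trend. IP lay below input in every library for these 3 genes. The MAD2L1 and SPC24 folds over input were -1.996 and -3.000 after that removal. The other 11 genes below input in WT IP were BUB1, BUB3, CENPK, KIF20A, BUB1B, ECT2, ANLN, CENPM, NUF2, CENPN and AURKA. Their log2 folds ran from -1.72 to -1.01, and CENPK came to -0.33 after removal of the GC trend. That removal took the number of listed genes called lower from 14 to 8. Calls besides those of TTK and CENPK were thus lost, and these further genes are not named here. Without that removal, the remaining 20 genes lay between -0.95 (CENPO) and 0.94 (TOP2A) and were not called.

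The control pull-down itself differed from input for many of the genes, as it did for many of all genes tested. In WT, 7 of 38 were higher in IgG than in input, against 24.4%, and 13 lower, against 36.6%. These became 10 and 7 after removal of the GC trend. CENPO was at 33.8, 30.4 and 31.8 CPM in WT input, at 18.1, 13.5 and 17.9 in WT IP and at 0.582 and 0.617 in WT IgG, so that its log2 fold of IP over IgG, 4.75 ± 0.287, went with a fold of IP over input of -0.95 ± 0.113. After removal of the GC trend the CENPO fold over IgG was 4.04. Its WT IgG level rested on 6 counts in each library. ECT2 was at 32.9, 35.5 and 38.2 CPM in WT input, at 14.9, 16.7 and 16.4 in WT IP and at 1.55 and 1.23 in WT IgG (IgG over input -4.64 ± 0.204, or -3.81 after removal of the GC trend). Both genes thus stood low in IgG rather than high in IP. SPC24 had 0 counts in both WT IgG libraries. Against 3 counts per library, IgG was at least 42.7-fold lower than input and IP at least 10.7-fold higher than IgG. CENPK was the reverse case, at 18.8, 17.8 and 15.7 CPM in WT IP and at 86.1 and 81.6 in WT IgG (IP over IgG -2.28 ± 0.0908). The other genes lower in IP than in WT IgG were CENPA, MAD2L1, BIRC5 and TPX2. Apart from CENPE and CENPF, the 6 genes above IgG in WT IP (PLK1, SPC24, SPC25, CENPO, CDC20 and ECT2) were not above input, and CDC20 came to 0.77, under the 2-fold threshold, after removal of the GC trend.

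In siTDP43 the counts of calls over input were the same as in WT, and the genes partly changed. Of the 38 genes 4 were higher in IP than in input, against 26.8% of the 12746 genes tested, and 14 lower, against 25.4%, with a median of -0.61 against -0.092 over all genes. CENPE, CENPF and INCENP were higher than input in both genotypes, and BUB1, TTK, BUB1B, NUF2, KIF20A and ECT2 lower in both. Against IgG 10 were higher, against 34.0%, and 4 lower, against 15.0%, which became 8 and 9 after removal of the GC trend. IgG was higher than input for 4 genes, against 24.7%, and lower for 20, against 41.0%, and these became 9 and 9 after removal of the GC trend. CENPE and CENPF were again the 2 ac4C(+) genes (5.26%), against 10.3% of all genes tested. The genes above IgG but not above input were ECT2, NDC80, PLK1, NUF2, ANLN, CENPK, CENPI and KIF18A, and TTK, INCENP, SPC24 and CENPO were below IgG. The WT and siTDP43 pull-downs have separate input and IgG libraries.

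The largest falls of siTDP43 IP against input were those of CENPO, KIF20A and KIF11. CENPO was at 31.3, 30.6 and 32.7 CPM in siTDP43 input, at 4.31, 3.54 and 5.48 in IP and at 16.9, 8.90 and 10.3 in IgG (log2 folds -2.69 ± 0.211 over input and -1.53 ± 0.272 over IgG). KIF20A was at 18.9, 23.2 and 20.1 CPM in IP (-2.48 ± 0.122 over input) and KIF11 at 18.7, 21.98 and 22.8 (-1.92 ± 0.137). All 3 lay below input in every IP library. CENPI and KIF18A had 0 counts in all 3 siTDP43 IgG libraries, the shallowest of the series. At 6.98, 6.08 and 7.72 CPM in IP, CENPI was at least 6.14-fold higher than IgG, and at 4.76, 4.05 and 4.73 CPM in IP, KIF18A at least 4.003-fold higher, each against 3 counts per library. Input was at 16.8, 20.5 and 18.2 CPM for KIF18A, and IgG was at least 19.7-fold and 16.4-fold lower than input for CENPI and KIF18A. ANLN was at 81.2, 82.8 and 83.8 CPM in siTDP43 input, 40.2, 38.2 and 36.9 in IP and 6.61, 1.62 and 7.83 in IgG (IgG over input -3.68 ± 0.222, or -2.39 after removal of the GC trend). Antibody pull-down of ANLN thus lay between input and control IgG, whereas SPC24 was at 21.6, 11.8 and 10.96 CPM in siTDP43 IP and higher in IgG, at 37.4, 46.1 and 49.1 CPM (input 14.1, 11.9 and 11.03 CPM, IgG over input 2.07 ± 0.216, IP over IgG -1.63 ± 0.222).

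**Figure D5:**
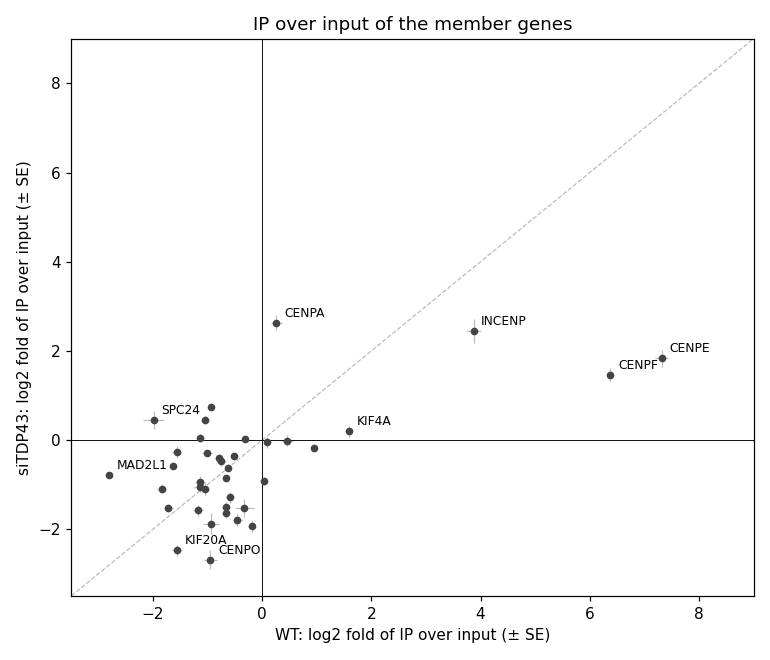
Log2 fold of IP over input in WT (x axis) against siTDP43 (y axis) for the 38 genes, with bars of 1 SE and a dashed line of equal values. CENPE and CENPF lie far to the right of the line at 7.32 and 6.38 in WT, CENPA lies above it, and most other genes lie below 0 in both genotypes.

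The change of enrichment over input between genotypes was tested in 1 model of all 17 libraries. It rose in siTDP43 for 12 of the 38 genes, against 31.5% of 15165 genes, and fell for 18, against 36.3% (median -0.24, all genes -0.19). After CENPE and CENPF the largest fall was that of CENPO (-1.89 ± 0.235). The largest rises were those of SPC24 (2.29 ± 0.301), CENPA (2.22 ± 0.194) and MAD2L1 (1.87 ± 0.0901). MAD2L1 was at 289, 323 and 316 CPM in siTDP43 IP, so it was less depleted there (-0.80 ± 0.0682 over input) than in WT. All of these differences kept their sign when each library was left out in turn and under each alternative scaling.

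Against IgG the change between genotypes rose for 17 of the 38 genes, against 34.9%, and fell for 15, against 25.9% (median 0.29, all genes 0.24). In DESeq2 16 of the 38 rose and 17 fell (median 0.059), beside 4994 rises and 5432 falls among the 15165 genes (median -0.13). In edgeR with DESeq2's size factors 16 rose and 16 fell, beside 4753 rises and 4429 falls among all genes (median 0.029). The balance of directions in this comparison thus depended on both scaling and tool. CENPK turned from below IgG in WT to above it in siTDP43, at 50.9, 54.5 and 48.3 CPM in siTDP43 IP and at 7.34, 15.4 and 5.69 CPM in IgG (IP over IgG 2.39 ± 0.218, change 4.73 ± 0.224). After removal of the GC trend the siTDP43 fold was 1.29 and the change 3.75. CENPO turned the opposite way (change -6.23 ± 0.436, with 6 counts in each WT IgG library). SPC24 did so too, with a change of -5.002 log2 units or lower against 3 counts per WT IgG library. SPC25 was at 33.9, 32.7 and 36.7 CPM in WT IP and at 3.88 and 3.91 in WT IgG, and at 25.6, 27.04 and 29.1 CPM in siTDP43 IP and at 24.2, 27.5 and 27.8 in siTDP43 IgG (change -3.11 ± 0.228, or -3.86 after removal of the GC trend). Most of that change lay in IgG. CENPI was at 4.55, 6.04 and 5.59 CPM in WT IP and at 3.10 and 4.32 in WT IgG, and KIF18A at 6.49, 6.77 and 7.62 and at 5.63 and 8.03. For CENPI and KIF18A the change was a rise of at least 2.08 and 1.97 log2 units. For CENPK, SPC24, CENPO and SPC25 the level in IgG differed more between the genotypes than the level in IP did.

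The kinases AURKA, AURKB and PLK1 and the checkpoint genes BUB1B and MAD2L1 lay below input in every pull-down library of both genotypes. AURKA was at 46.04, 52.7 and 39.7 CPM in WT IP and at 63.4 and 48.98 in WT IgG, and at 185, 177 and 184 CPM in siTDP43 IP and at 123, 129 and 141 in siTDP43 IgG. AURKB was at 221, 199 and 192 CPM in WT IP and at 137 and 127 in WT IgG, and at 203, 181 and 171 CPM in siTDP43 IP and at 169.6, 155 and 162 in siTDP43 IgG. PLK1 was at 79.3, 69.98 and 78.4 CPM in WT IP and at 10.3 and 13.996 in WT IgG (IP over IgG 2.63 ± 0.112, or 1.81 after removal of the GC trend). In siTDP43 PLK1 was at 61.8, 60.3 and 61.04 CPM in IP and at 26.4, 12.5 and 18.9 in IgG. It stood above IgG in every IP library of both genotypes. BUB1B was at 25.6, 25.5 and 25.1 CPM in WT IP and at 16.1 and 22.2 in WT IgG, and at 29.8, 37.5 and 37.7 CPM in siTDP43 IP and at 24.6, 29.5 and 36.6 in siTDP43 IgG. MAD2L1 was at 169, 162 and 185 CPM in siTDP43 IgG.

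For several of the anaphase and spindle genes the share of a transcript in the control pull-down differed between the genotypes. CDC20 was at 193, 186 and 195 CPM in WT IP and at 58.5 and 67.8 in WT IgG, and at 149, 136 and 129.6 CPM in siTDP43 IP and at 80.04, 72.03 and 97.1 in siTDP43 IgG. Relative to input, CDC20 in IgG was alike in both genotypes (-1.55 ± 0.0712 in WT and -1.58 ± 0.0937 in siTDP43). PTTG1 was at 157, 162 and 170.3 CPM in WT IP and at 170.02 and 161 in WT IgG, and at 349, 327 and 308 CPM in siTDP43 IP and at 414, 427 and 425 in siTDP43 IgG. The securin RNA was below input in both WT pull-downs and above it in both siTDP43 pull-downs, more so in IgG (IgG over input 1.19 ± 0.0682, 0.64 under total count scaling and 2.12 after removal of the GC trend). TPX2 was at 92.3, 95.9 and 91.7 CPM in WT IP and at 225 and 230.4 in WT IgG (IP over IgG -1.31 ± 0.0585), and at 121, 123 and 126 CPM in siTDP43 IP and at 60.2, 72.8 and 78.3 in siTDP43 IgG. TOP2A was at 348, 383 and 398 CPM in WT IP and at 462 and 482 in WT IgG (IgG over input 1.29 ± 0.0587, or 1.95 after removal of the GC trend), and at 159, 152 and 158 CPM in siTDP43 IP and at 185, 191 and 171 in siTDP43 IgG. In WT both were higher in IgG than in IP in every library. KIF11 was at 56.8, 55.3 and 61.9 CPM in WT IP and at 53.1 and 53.9 in WT IgG, and at 16.9, 8.90 and 11.4 in siTDP43 IgG. NDC80 was at 37.3, 34.4 and 34.9 CPM in WT IP and at 27.2 and 33.1 in WT IgG, and at 38.6, 40.1 and 39.99 CPM in siTDP43 IP and at 11.01, 13.8 and 17.1 in siTDP43 IgG. For both genes siTDP43 IgG was the lowest of the 6 groups.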

How the data were processed

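The deposited table holds raw read counts per gene for 17 libraries and 23368 genes, of which 4188 had no count. According to the study's methods and the submitters' processing notes, the authors trimmed reads (Trim Galore 0.6.7), aligned them (STAR 2.7.10a) and counted them (featureCounts 2.0.2), without molecular identifiers. The notes name mm10 while the methods name hg19 for human cells, and no exon end in the annotated positions of the table lay beyond an hg19 chromosome end. Strand setting, annotation version and the counting of read pairs are not given in the sources used here, and 81.3 to 95.9% of counts from 1 to 20 were even in each library. The IP and IgG libraries came from small amounts of RNA, and the ac4C spike-in was not used here.

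Groups followed the genotype and pull-down labels. Counts were tested in edgeR 4.0.16 (R 4.3.3) with quasi-likelihood F tests, TMM scaling, genes kept by filterByExpr at a minimum count of 10, and Benjamini-Hochberg adjustment over all genes tested. The fits used the 6 input libraries, the 8 WT libraries, the 9 siTDP43 libraries, or all 17 for changes between genotypes. Calls needed an adjusted p under 0.05 and, within a genotype, a fold change above 2. Every adjusted p in the text is from these edgeR fits. Fits were tested on simulated data. No 2 libraries were identical. Replicate numbers did not pair libraries (correlations of same-numbered deviations -0.0244 to 0.0727), so no block was used. A group with at most 3 counts in every library was set to 3 counts per library, which gives bounds in place of folds and covers counting error only.

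Alternatives were DESeq2 1.42.0, edgeR with DESeq2's size factors or with plain library totals (total count scaling), no filter, a mean of at least 50 counts, removal of each library's trend with exon GC content, a replicate block, a fold over IgG above 5 for ac4C(+), and each library left out in turn. The 38 genes and the other gene lists were chosen with earlier results of these data known. Values in every library are given for 14 genes fixed by function and, in each comparison, for the 3 largest rises and falls whose groups do not overlap. Genes outside the 38 were named as the 2 largest changes in each direction in the inputs. Exceptions are stated.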

Additional observations from a re-analysis of the deposited data

Results flagged for a closer look

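By a test of the difference itself, 30 of the 38 genes differed between WT and siTDP43 over input and 32 over IgG. Among all 15165 genes 31.5% rose and 36.3% fell over input, and 34.9% rose and 25.9% fell over IgG. The 3 largest rises and falls of each comparison are collected here, as log2 values of siTDP43 minus WT. They come from the edgeR quasi-likelihood fit of all 17 libraries. The fold of IP over input differed by -5.62 for CENPE, by -5.06 for CENPF and by -1.89 for CENPO, and by 2.29 for SPC24, 2.22 for CENPA and 1.87 for MAD2L1. The fold of IP over IgG differed by -6.23 for CENPO, -3.11 for SPC25 and 4.73 for CENPK. The CENPO value rests on 6 counts in each WT IgG library. Where a group had 0 counts in every IgG library the difference is a bound against 3 counts per library: -5.002 or lower for SPC24, and at least 2.08 for CENPI and 1.97 for KIF18A. CENPO and SPC24 were called above IgG in WT and below it in siTDP43, and CENPK the reverse. The part of the control pull-down, of input level and of library depth in these differences was not tested.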

How the results depend on the processing

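In the inputs, 24 to 25 of the 38 genes were higher and 8 to 9 lower with any 1 library left out. The corresponding ranges were 4 higher and 13 to 15 lower for WT IP over input, 8 and 5 for WT IP over IgG, 5 to 7 and 13 to 16 for WT IgG over input, 4 and 14 for siTDP43 IP over input, 10 and 4 for siTDP43 IP over IgG, 4 and 20 to 22 for siTDP43 IgG over input, 10 to 12 and 18 to 19 for the change over input, 17 to 18 and 14 to 16 for the change over IgG, and 2 ac4C(+) genes in each genotype. With the replicate number as a block the input counts were 25 and 9, and the block changed no call among the values tested; the combined fit of block and GC trend was not run, since the numbers did not pair the libraries. Removal of the GC trend moved most counts: 8 lower in WT IP over input, 8 lower in WT IP over IgG, 7 lower in WT IgG over input, 9 lower in siTDP43 IP over IgG, and 9 higher and 9 lower in siTDP43 IgG over input. With it the share of higher among all genes called went from 66.4 to 49.0% in WT IP over IgG and from 69.3 to 48.7% in siTDP43 IP over IgG, and the median of the 38 genes from 0.016 to -0.30 and from 0.27 to -0.28. DESeq2 moved the median of all genes in the change over IgG from 0.24 to -0.13, and its size factors in edgeR moved it to 0.029. A fold over IgG above 5 left 1 ac4C(+) gene in siTDP43. Total count scaling moved the median of all genes from -0.58 to -1.13 in siTDP43 IgG over input, from -0.092 to -0.43 in siTDP43 IP over input and from -0.19 to -0.48 in the change over input.

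Signs turned as follows, and the cause was not tested. In the inputs, removal of the GC trend gave 0.086 for AURKB, -0.28 for NDC80, 0.61 for SPC24, 0.12 for CENPO and -0.30 for TOP2A. Total count scaling gave -0.069 for NDC80 and -0.089 for TOP2A, and a mean of at least 50 counts -0.026 and -0.045. CENPO came to 0.0020 in DESeq2 and 0.0022 with its size factors. With 1 input library left out in turn the range was -0.032 to 0.097 for NDC80 (turned without siTDP43 replicate 2), -0.15 to 0.029 for SPC24 (without siTDP43 replicate 3), -0.052 to 0.024 for CENPO (without WT replicate 1 or siTDP43 replicate 2) and -0.021 to 0.024 for TOP2A (without WT replicate 1 or 2 or siTDP43 replicate 2 or 3). In the pull-downs, removal of the GC trend gave 0.21 for CENPE and 0.40 for CENPF in siTDP43 IgG over input, 0.29 for CENPK and -0.41 for SPC24 in siTDP43 IP over input, and -0.18 for MAD2L1 in siTDP43 IP over IgG. With 1 WT library left out INCENP in WT IP over IgG came to -0.49 to 0.0023, turning without WT IgG replicate 2. Some input changes kept their sign and call but shrank after removal of the GC trend: KIF11 to 0.12, MAD2L1 to 0.19, SPC25 to 0.35 and CENPM to -0.25. Others grew: PLK1 to 1.12, ESPL1 to 1.82, CDC20 to 0.92 and CENPH to -1.70. Depth was lowest in siTDP43 IgG, where 0 counts in 2 of the 38 genes left only bounds.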
